A study of Homo sapiens and Mus musculus with 7 samples.

Results

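The comparison set the liver of a wild-type mouse against HepG2, a human line established from a liver tumour, to ask which liver functions the line held at a high level, which it did not, and which genes were high in the line alone. It used 2 of the 7 arrays of the series. The liver array held RNA from normal liver tissue of a male C57/BL6 mouse aged 2 months. The HepG2 array held cells carrying the PLKO control vector, and thus no Fas hairpin. Further arrays, from the liver of a Fas knock-out mouse of the same strain, sex and age and from HepG2 cells carrying FAS shRNA6, were read as second arrays of the same systems, and an ovarian cancer line, HeyA8 with the PLKO vector, served as a human line of another tissue. Each group was a single array, so no test between groups was possible and differences are given as values and counts by size.

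For every gene the probe set with the highest signal on an array was taken, among probe sets naming 1 gene, and converted to a percentile: its rank among all named genes of that array, where 100 is the highest. Genes were then paired between mouse and human by symbol, ignoring case. The mouse array named 18193 genes and the human array 19773, and 13637 were paired. A gene at or above percentile 75 was called high and a gene below percentile 50 low. Genes high on both arrays are called kept here, genes high in liver and low in HepG2 lost, and genes low in liver and high in HepG2 gained. These are names for positions in the ranking: species, array design and tissue against cultured line differ together in this comparison and cannot be told apart. A percentile also carries each probe set's own affinity, and liver tissue holds several cell types where the line holds tumour cells alone, so fewer cells of a type and less RNA per cell cannot be told apart either.

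Hepatocytes make most plasma proteins, dispose of ammonia through the urea cycle, buffer blood glucose, burn and export lipid, and oxidise and conjugate foreign compounds for export into bile. These tasks are under the control of a network of liver-enriched transcription factors, among them the HNF1, HNF4, FOXA and C/EBP families and several nuclear receptors. The fetal liver shares the secretory programme but expresses alpha-fetoprotein, insulin-like growth factor pathway members and imprinted genes that are shut down after birth, and hepatic tumours often express them again. HepG2 grows continuously in culture, is widely used as a stand-in for human hepatocytes, and is known to carry an activated form of beta-catenin.

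The human promoters of 4 genes are shown because they stand for the 3 patterns that follow: ALB (albumin) and FGB (fibrinogen beta chain) are secreted proteins high on both arrays, AFP (alpha-fetoprotein) is the fetal relative of albumin and its neighbour on chromosome 4, and CCNB2 (cyclin B2) is a mitotic gene. Each run covers 250 bases before to 50 after the transcription start in the RefSeq annotation of GRCh38.p14, all on the plus strand: chr4:73404037-73404336 for ALB, chr4:73435971-73436270 for AFP, chr4:154562730-154563029 for FGB and chr15:59104896-59105195 for CCNB2. Capitals mark GTTAAT or its reverse complement ATTAAC, the core of the HNF1 binding sequence, in ALB, AFP and FGB, the TATA box TATAAA in AFP, and CCAAT and the cell cycle element TTTGAA in CCNB2.
ALB: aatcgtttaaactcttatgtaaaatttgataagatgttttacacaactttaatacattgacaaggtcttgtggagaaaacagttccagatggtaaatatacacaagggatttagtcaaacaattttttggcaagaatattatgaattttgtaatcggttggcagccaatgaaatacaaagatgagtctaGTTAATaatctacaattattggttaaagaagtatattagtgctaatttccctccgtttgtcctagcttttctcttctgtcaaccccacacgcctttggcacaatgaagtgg
AFP: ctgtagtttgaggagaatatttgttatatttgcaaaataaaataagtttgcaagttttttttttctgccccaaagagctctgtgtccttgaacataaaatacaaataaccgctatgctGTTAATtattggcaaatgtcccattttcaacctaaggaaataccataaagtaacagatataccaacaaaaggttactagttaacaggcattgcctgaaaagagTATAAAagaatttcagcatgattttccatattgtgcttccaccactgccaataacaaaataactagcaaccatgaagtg
FGB: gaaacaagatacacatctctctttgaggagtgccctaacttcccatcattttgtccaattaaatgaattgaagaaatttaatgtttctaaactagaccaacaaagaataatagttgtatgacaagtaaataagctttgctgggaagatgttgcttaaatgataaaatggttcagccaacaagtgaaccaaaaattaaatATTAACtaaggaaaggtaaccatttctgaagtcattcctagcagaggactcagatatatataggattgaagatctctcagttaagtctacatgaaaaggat
CCNB2: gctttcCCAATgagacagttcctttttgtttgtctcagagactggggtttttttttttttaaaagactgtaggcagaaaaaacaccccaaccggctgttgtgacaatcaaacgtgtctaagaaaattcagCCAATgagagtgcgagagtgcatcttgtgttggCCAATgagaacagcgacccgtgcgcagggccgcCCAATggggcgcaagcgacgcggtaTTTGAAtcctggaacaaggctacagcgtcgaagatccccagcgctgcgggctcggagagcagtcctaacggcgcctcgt
GTTAAT began 61 bases before the start of ALB, 132 bases before that of AFP and, on the opposite strand, 51 bases before that of FGB. In CCNB2 the 4 CCAAT boxes began 244, 120, 87 and 54 bases before the start and TTTGAA 29 bases before it. A match is a description of the letters and not evidence of a bound site.

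Of the 13637 paired genes, 4002 were high in liver and 4455 high in HepG2. 2639 were kept (19.4% of all paired genes), 403 were lost (2.96%) and 455 were gained (3.34%). Read from the liver side, 65.9% of the liver-high genes were kept, 10.1% were lost and the other 960 lay between the percentiles 50 and 75 in HepG2. Read from the HepG2 side, 10.2% of the HepG2-high genes were gained. The median paired gene stood at percentile 57.3 in liver and 60.8 in HepG2, with a median difference of 2.53 points (HepG2 minus liver) and quartiles of -10.2 and 15.5. The plot of both percentiles shows most secreted proteins and enzymes along the right edge, scattered over the full height of the HepG2 axis. Of the mitotic genes 31 of 52 and of the fetal genes 14 of 33 lie in the upper left, as gained genes.

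**Figure D1:**
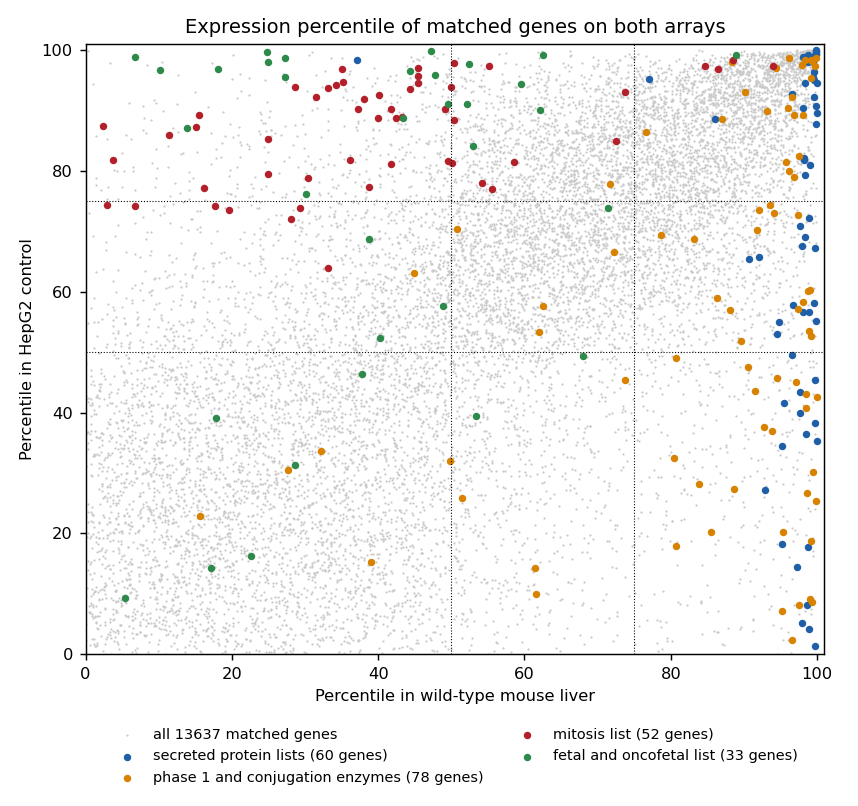
Percentile of each paired gene in wild-type mouse liver (horizontal axis) and in HepG2 control (vertical axis); grey points are all 13637 paired genes, coloured points the lists named in the legend, and dotted lines the percentiles 50 and 75. All 52 mitosis genes lay higher in HepG2 than in liver, and 59 of the 60 secreted protein genes were high in liver.

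The second arrays show how far a percentile moved between arrays of 1 system, treatment and genotype included. Between the livers the median gap was 2.24 points and 95% of genes moved by less than 16.8; between the HepG2 arrays these values were 1.84 and 18.2. High genes were steadier (95% within 3.36 and 3.50 points) than low genes (within 21.9 and 23.7), so differences of that size among low genes are not read as differences here. On the second pair of arrays 351 of the 403 lost, 368 of the 455 gained and 2501 of the 2639 kept genes fell in the same class. FAS, the death receptor the series targets, stood at percentile 68.2 in wild-type and 50.8 in Fas knock-out liver, and 74.7 in HepG2 with PLKO and 67.0 with shRNA6. Whether the mouse probe set lies in the deleted part was not tested, and the HepG2 gap is within the 18.2 points just given. The arrays' settings were alike, with a trimmed mean signal of 496 to 497 on each of the 5 used here.

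The labels held against hepatocyte markers. Of the 9 paired markers all 9 were high in wild-type liver, 6 were high in HepG2 and none was high in HeyA8, where 8 were low. ALB, TTR, APOA1, APOB, SERPINC1 and AHSG were the 6 high in HepG2. CPS1 was intermediate (percentile 71.5), TAT lay just under the cut at 49.9 and CYP2E1 was low at 25.3. HNF4A, a factor that defines the hepatocyte, had percentile 98.1 in liver, and its human level is not analysed here because no human probe set named it alone.

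Of the 10 named genes of highest signal in liver, 9 could be paired. Among them FABP1 (fatty acid binding), APOA1, APOA2, FGB and TTR (the thyroxine and retinol carrier transthyretin) were kept, as was UQCRB of respiratory complex III. PZP, BHMT (a methyltransferase of methionine recycling) and GSTP1 were lost. BHMT stood at 61.2 on the second HepG2 array, outside the low class, and was not lost with the median probe set. In HepG2 the 10 were APOH, APOA2 and the chaperonin HSPD1 together with ribosomal proteins and the mitochondrial gene COX2. 10 genes were among the 100 highest of both arrays. Of the 73 liver top-100 genes that could be paired, 53 were kept and 12 lost.

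Carrier and transport proteins of the plasma were very high in liver and varied in HepG2. Of 24 paired members (29 listed), 13 were kept (56.5% of the 23 liver-high members, beside 65.9% of all liver-high genes), 6 lost and 1 gained, and the median percentile was 99.2 in liver and 90.2 in HepG2. ALB had a signal of 29417.2 in liver and 28770.5 in HepG2 and percentile 99.8 on both; the second arrays gave 99.8 and 99.9. APOH (apolipoprotein H, a phospholipid-binding glycoprotein) had the highest signal of all named genes in HepG2, 40612.4, against percentile 99.8 in liver. AHSG (fetuin A) stood at 99.9 and 99.6, and RBP4, the retinol carrier, at 99.8 and 99.4. None of the 24 was high in HeyA8, where ALB reached percentile 31.6. Listed carriers named under their symbol on the human array alone were TF, SERPINA1 and A1BG. They stood at 99.9, 99.8 and 59 in HepG2 and are not in these counts.

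The lost carriers were AFM, PZP, HRG, ITIH4, FETUB and ITIH1. AFM (afamin, a vitamin E binding member of the albumin family) had a signal of 17219.2 and percentile 98.8 in liver against 11.6 and 17.8 in HepG2, with 98.8 and 37.3 on the second arrays. Of the albumin family members paired here, ALB and AFP thus stood at percentile 99.8 in HepG2 while AFM was low. PZP, a broad protease inhibitor, stood at percentile 100 in liver and 35.3 in HepG2, and the related A2M ran the other way, from 37.1 (signal 79.9) to 98.3 (signal 12367.4), making it the only gained member. In mice PZP is the abundant liver-derived protein of this pair and in humans A2M is, so species and cell state cannot be told apart for it.

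Blood coagulation divided by factor. Of 20 paired genes 11 were kept (55%, all 20 being high in liver), 5 were lost and 4 lay between, with medians of 98.3 in liver and 80.7 in HepG2. The fibrinogen chains were all kept: FGA at percentile 99.5 and 98, FGB at 100 and 94.5, and FGG at 99.8 and 99.4. Prothrombin (F2) stood at 99.6 and 95, and FGL1, a fibrinogen-like hepatokine, at 98.8 and 98.1. The clot substrate and the precursor of the enzyme that cleaves it were high on both arrays. CPB2, named on the human array alone and not counted, stood at 95 in HepG2.

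The lost coagulation genes were KLKB1, F13B, F9, PLG and PROZ. KLKB1, plasma prekallikrein of the contact system, had a signal of 11796.5 in liver and 3.7 in HepG2 (percentile 97.9 against 5.1; second arrays 97.6 and 34.7). F13B, the carrier subunit of factor XIII, stood at 98.6 against 8.1, and F9, factor IX, at 97.3 against 14.5. PLG, plasminogen, the precursor of the clot-dissolving enzyme, had a signal of 28823.1 in liver (99.7) and 87.6 in HepG2 (45.4). On the second arrays F13B, F9 and PLG were lost as well, whereas PROZ, at 49.5 in HepG2, stood outside the low class at 55.2.

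Complement and acute phase genes were the secreted group with the largest median difference, -41.4 points against 2.53 over all paired genes. All 16 paired members were high in liver and lower in HepG2. 4 were kept (25%, beside 65.9% of all liver-high genes), 6 were lost (beside 10.1% of all liver-high genes) and 6 lay between. The other lost members were LECT2 and MASP1. C9, the pore-forming end component of complement, had the largest negative difference of any gene whose class also held on the second arrays and with the median probe set. Its signal was 28976.4 in liver and 1.9 in HepG2 (percentile 99.7 against 1.3), and 19.3 on the second HepG2 array. CRP, C-reactive protein, stood at 98.9 against 4.2, C6 at 95.2 against 18.2, and LBP, the binding protein for bacterial lipopolysaccharide, at 92.9 against 27.1. The 3 chains of C8 were each between, at 58.2, 56.6 and 56.7 in HepG2 for C8A, C8B and C8G. The kept members were ORM1 (orosomucoid, 99.4 and 98.6), CFI (the complement inhibitor factor I, 99.6 and 96.4), HAMP (hepcidin, the iron hormone, 99.6 and 92.3) and CFB (98.2 and 81.8). C3, named on the human array alone, stood at percentile 99 in HepG2. Other members so named were C5 at 92.1, C4BPA at 75.5, C1S at 63.8 and C1R at 43.8.

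Among lipoprotein genes 12 of 20 paired members were kept (60.0%, beside 65.9% of all liver-high genes), 3 lost and 5 between, with medians of 99 and 84.5. APOA2 stood at percentile 100 on both arrays, APOB, the structural protein of very low density lipoprotein, at 99.5 and 99.9, APOA1 of high density lipoprotein at 100 and 99.2, and APOC1 at 99.6 and 98.5. PON1, the paraoxonase carried on high density lipoprotein, had a signal of 28126.4 in liver (99.7) and 20.7 in HepG2 (24.0). APOA4, a chylomicron and intestinal-type apolipoprotein, stood at 92.8 against 29.2, and ANGPTL4, an inhibitor of lipoprotein lipase, at 91.9 against 32.2. All 3 were lost on the second arrays too.

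HNF1 core letters were counted in the promoters of the secreted lists. GTTAAT, on either strand, lay in 2 of 14 promoters (14.3%) of the complement list and likewise of the lipoprotein list. For the carriers and clotting genes, the lists with the highest shares, it lay in 13 of the 36 RefSeq promoters found for these 44 genes (36.1%), against 4.43% of the 11128 promoters of paired genes and 6.89% of all 27305 promoters read, 1 per gene. Kept and lost members both held it: 8 of 17 promoters of kept genes (47.1%) and 4 of 11 of lost genes (36.4%).

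Urea cycle and nitrogen genes were kept in 8 of 13 cases (61.5%, near the 65.9% of all liver-high genes). In HeyA8 7 of the 13 were high as well, all of them kept genes, and the kept ASS1 stood at 52.8 there. 4 lay between and 1, OTC, was lost. OTC, ornithine transcarbamylase, which joins carbamoyl phosphate to ornithine, had a signal of 21234.1 in liver (percentile 99.2) and 4.8 in HepG2 (7.5), with 99.3 and 21.5 on the second arrays. ARG1, the arginase that releases urea, was at 99.7 and 52.7, and CPS1, which starts the cycle, at 99.8 and 71.5. The middle enzymes ASS1 and ASL were kept, ASS1 at 75.3 and 88.4 and ASL at 97.4 and 83.8; ASS1 stood at 67.7 in Fas knock-out liver, outside the high class. GLUL (glutamine synthetase, 97.6 and 98) and GLUD1 (glutamate dehydrogenase, 98.6 and 98.5), which also handle ammonia, were high on both.

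Enzymes of amino acid breakdown were lower in HepG2 almost throughout. All 37 paired members were high in liver, and 36 of 37 were lower in HepG2. 12 were kept (32.4%, beside 65.9% of all liver-high genes), 11 were lost (beside 10.1% of all liver-high genes) and 14 lay between. The median was 97.0 in liver and 63.5 in HepG2. UROC1 (urocanase of histidine breakdown) stood at 96.0 against 3.6, KMO (kynurenine monooxygenase) at 95.1 against 13.1, AGXT2 at 94.0 against 23.6 and HAO1 (glycolate oxidase of the peroxisome) at 98.7 against 29.6. KMO belongs to tryptophan breakdown, whose later enzyme KYNU was kept at 92.5 and 89.7. TAT, tyrosine aminotransferase, defined the edge of the class at 49.9 in HepG2 (signal 135.4, against 19437.3 in liver), and on the second arrays it lay just outside at 50.3. On the second arrays 6 genes of the list were lost, against 11 here. Downstream in tyrosine breakdown HGD was kept at 98.8 and 92.0. GLDC, the glycine cleavage decarboxylase, was the kept member highest in HepG2 (86.0 and 95.7), followed by HGD and PIPOX (97.0 and 90.9).

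Among genes of glucose output and hexose use 5 of 15 were kept, 3 lost and 7 in no class. The kept were 38.5% of the 13 liver-high members, beside 65.9% of all liver-high genes, of which 10.1% were lost. The lost genes were GYS2, PCK1 and FBP1. GYS2, the liver form of glycogen synthase, had a signal of 7982.0 in liver and 1.0 in HepG2, the percentiles being 96.4 and 0.2 and on the second arrays 95.7 and 2.7. PCK1, the cytosolic enzyme that commits carbon to gluconeogenesis, stood at 99.4 against 19.3, but at 50.2 on the second HepG2 array, just outside the low class. FBP1, fructose bisphosphatase, stood at 99.8 against 48.2. Glycogen breakdown and branching genes were kept: PYGL at 98.7 and 84.0, GBE1 at 90.3 and 87.2 and UGP2, which makes the glycogen precursor, at 98.4 and 96.8. PYGL, GBE1 and UGP2 were high in HeyA8 too, at 91.8, 95.6 and 94.6. The glucose 6-phosphate transporter SLC37A4 was kept as well (97.7 and 79.8).

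Glycolytic forms of dividing cells ran the other way in part: 14 of 19 were higher in HepG2 and 1, SLC2A3, was gained, beside 3.34% of all paired genes. SLC2A3, the high-affinity glucose transporter GLUT3, stood at 39.5 in liver and 94.5 in HepG2. ENO2, the neuronal enolase, differed most, at 8.9 and 66.7, and HK2, a hexokinase, stood at 54.5 and 93.2. LDHA, lactate dehydrogenase, was kept at 98.8 and 99.8, as were ALDOA, PGK1 and PGAM1. PCK2, the mitochondrial counterpart of PCK1, stood at 50.2 and 95.5, just outside the gained class.

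Genes of mitochondrial and peroxisomal fat oxidation were lower in HepG2 in 22 of 25 cases. Of these 25 genes 13 were kept (56.5% of the 23 liver-high ones, beside 65.9% overall), 1 was lost and 11 were in no class, with medians of 97.2 and 81.6. In HeyA8 11 of the 25 were high as well, all of them kept genes. ETFB and ETFA, which pass electrons from acyl-CoA dehydrogenases, stood at 97.9 and 98.4, and at 98 and 98.1. HADHB of the trifunctional protein stood at 97.7 and 96.9 and ECI2, an enoyl-CoA isomerase, at 96.1 and 95.9. The lost member was ACADL, the long-chain acyl-CoA dehydrogenase, at 97.3 against 30.7. The hormone FGF21 differed by 47.9 points (54.8 against 6.9) and ETFDH, the partner of the ETF proteins, by 40.3 (96.5 against 56.2). All 24 paired genes of oxidative phosphorylation were kept, with medians of 97.7 and 96.2. CYCS, COX5A, COX4I1 and UQCRC2 led that group in HepG2, and the largest gap, of NDUFA9, was 8.4 points.

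Of 27 sterol and fatty acid synthesis genes 16 were kept, 69.6% of the 23 that were high in liver and near the 65.9% of all liver-high genes. In HeyA8 17 of the 27 were high. ACLY, which makes cytosolic acetyl-CoA, stood at 97.4 and 98.1, MSMO1 at 97.8 and 97.6, FDPS at 97.6 and 97.0 and SQLE, squalene epoxidase, at 89.1 and 96.9. ME1 and INSIG1 were lost. ME1, malic enzyme, which supplies NADPH for lipogenesis, stood at 96.5 against 12.5, and INSIG1, the sterol-sensing brake on SREBP processing, at 95.9 against 22.1. Both were high in HeyA8, at 93.0 and 95.3, so that their human probe sets gave a high signal in another human line.

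Many enzymes of drug and steroid oxidation were lost. Of 43 paired cytochrome P450 and other phase 1 genes 10 were kept and 12 lost, with medians of 95.4 in liver and 53.4 in HepG2. The kept were 32.3% of the 31 liver-high members, beside 65.9% of all liver-high genes, of which 10.1% were lost. CYP2E1, the ethanol-inducible P450, had a signal of 33713.1 in liver (percentile 99.9) and 23.3 in HepG2 (25.3; second arrays 99.9 and 36.3). CYP7A1, the rate-limiting enzyme of bile acid synthesis, stood at 95.4 against 20.2 and CYP7B1 of the alternative pathway at 99.2 against 18.8. DPYS, dihydropyrimidinase, had a signal of 8240.3 in liver and 2.5 in HepG2 (96.6 against 2.4), and FMO1, a flavin monooxygenase, stood at 95.2 against 7.1. The kept members were mainly dehydrogenases and electron donors: ADH5 (99.1 and 98.3), ALDH1A1 (99.3 and 98.2), CYB5R3 (97.9 and 97.5) and CYB5A (99.7 and 97.4). ADH5, CYB5R3 and CYB5A were high in HeyA8 too (94.1, 95.7 and 81.9), and ALDH1A1 was low there (4.9). CYP27A1 was the only member named as a P450 among the 10 kept, at 98.1 and 89.2. CYP1A2 lay between the classes at 99.2 and 52.7. Many mouse P450 genes have no human gene of the same symbol and are therefore not analysed here.

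Conjugation, the second phase of clearance, was split: 12 of 35 paired enzymes were kept and 13 lost. The kept were 37.5% of the 32 liver-high members, beside 65.9% of all liver-high genes, of which 10.1% were lost. GSTA3, a glutathione transferase, stood at 99.3 against 8.6, INMT, a methyltransferase, at 99 against 9.1, ACSM1 at 97.5 against 8.2 and GLYAT, which conjugates glycine, at 98.6 against 26.6. GSTP1, among the 10 highest signals in liver (34287.2), had a signal of 68.9 in HepG2 (42.5) and was high in HeyA8 (94.5). GSTO1 (96.1 and 98.7), MGST1 (99.9 and 98.6), SULT1A1 (98.4 on both) and HNMT, which methylates histamine (88.3 and 98), were kept. In HeyA8 GSTO1 and MGST1 were high too (98.8 and 98.6), and SULT1A1 and HNMT were not (55.6 and 34.7). Gene families such as the GST and SULT genes hold close copies whose probe sets can share signal, and whose members of equal name need not be the equivalent genes of the other species.

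The list of bile and drug transporters followed: 5 of 27 were kept, 6 lost, 1 gained and 15 in none of these classes. The list was drawn widely and counts TTPA among the lost, SLC27A2 among the kept and SLC27A5 in no class. The kept were 22.7% of the 22 liver-high members, beside 65.9% of all liver-high genes. Of all liver-high genes 10.1% were lost, and of all paired genes 3.34% were gained. SLC10A1, the sodium taurocholate cotransporter that takes up bile acids and is the entry receptor of hepatitis B virus, had a signal of 24451.7 in liver (99.5) and 10.3 in HepG2 (16.3; 38.5 on the second HepG2 array). ABCB11, the bile salt export pump, stood at 96.9 against 29.8, AQP9, which takes up glycerol, at 97.6 against 22.4 and SLC38A4, an amino acid transporter, at 98.9 against 28.8. ABCC2 (92.6 and 86.8), ABCC3 (94.7 and 82.3), SLC47A1 (93.5 and 88.1) and the sterol exporter ABCG5 (92.3 and 77.2) were kept. ABCC1, a multidrug exporter low in normal hepatocytes, was gained at 43.4 against 89.5. Of other multidrug-type exporters ABCC2, ABCC3 and SLC47A1 were high in HepG2, as given above. ABCG2 at 72.1, ABCC4 at 70.2 and ABCB4 at 55 lay below the high class. So did ABCB1, named on the human array alone, at 68.

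Over the 11 lists of liver functions 275 genes were paired and 250 were high in liver. Of these 105 (42.0%) were kept, 67 (26.8%) lost and 78 between, beside 65.9% and 10.1% over all liver-high genes. The set of all liver-high genes is not like these lists, since 85.0% of all kept genes were also high in HeyA8. In HeyA8 41 of the 275 list genes were high, and none of the 60 secreted genes. Of the 548 genes high in liver and low in HeyA8, 20.4% were high and 52.6% low in HepG2. The share kept was 47.5% of the 59 liver-high secreted genes and 31.8% of the 85 liver-high genes of oxidation, conjugation and transport, and the share lost 28.8% and 36.5%. The bar chart shows the division for each list.

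**Figure D2:**
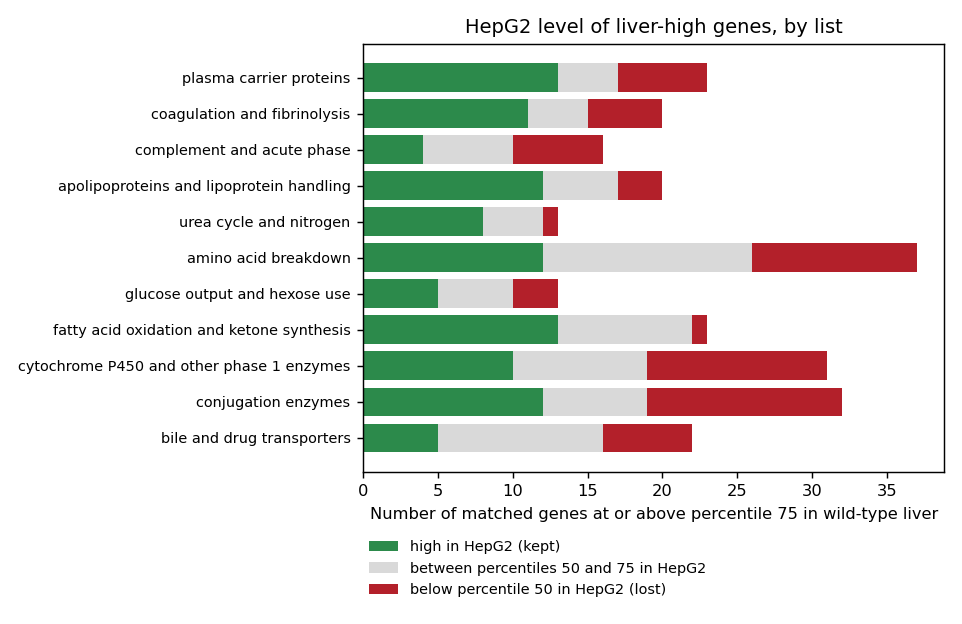
Number of paired genes at or above percentile 75 in wild-type liver in each liver function list (horizontal axis), divided by their HepG2 level: high (green, kept), between percentiles 50 and 75 (grey) or below 50 (red, lost). Oxidation and conjugation enzymes held the most lost genes, 12 and 13, and urea cycle and fat oxidation the fewest, 1 each.

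Of 40 paired liver transcription factors and nuclear receptors 23 were high in liver, against 250 of the 275 liver function genes. 9 of these 23 (39.1%) were kept, beside 42.0% of the liver-high function genes and 65.9% of all liver-high genes, and 4 were lost. A further 4 of the 40 were gained, beside 3.34% of all paired genes, and the median difference was -3.64 points. CEBPA and CEBPB, the C/EBP factors, stood at 93.7 and 93.9, and at 98.1 and 96.8. XBP1, the secretory pathway factor, stood at 98.7 and 96.2, HHEX, which specifies the liver bud, at 93.7 and 88.4, and FOXA2 at 82.5 and 86.2. The glucocorticoid receptor NR3C1 (89.6 and 82.8), the corepressor NR0B2 (85.4 and 82.1), NR2F6 and AHR completed the kept set. FOXA1 (76.4 and 73.8), FOXA3 (89.9 and 68.6), ONECUT1 (73.3 and 52.5) and the fat oxidation receptor PPARA (95.8 and 62.0) were in no class.

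The lost factors were NR1I3, CREB3L3, NR5A2 and ESR1. NR1I3, the constitutive androstane receptor that induces drug-metabolising enzymes, had a signal of 2712.9 in liver (89.6) and 16.2 in HepG2 (21.1; 40.3 on the second HepG2 array). CREB3L3, a fasting-responsive membrane-bound factor, stood at 96.7 against 30.9, NR5A2, a regulator of bile acid synthesis, at 87.6 against 34.7 and ESR1, the estrogen receptor, at 83.3 against 34.2. The gained factors were TOX3 (36.4 against 91.7), PPARD (22.4 against 75.7), NR2F1 (29.0 against 80.6) and THRB (47.0 against 77.3). PPARD and THRB lay just above the cut in HepG2 and were not gained with the median probe set.

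**Figure D3:**
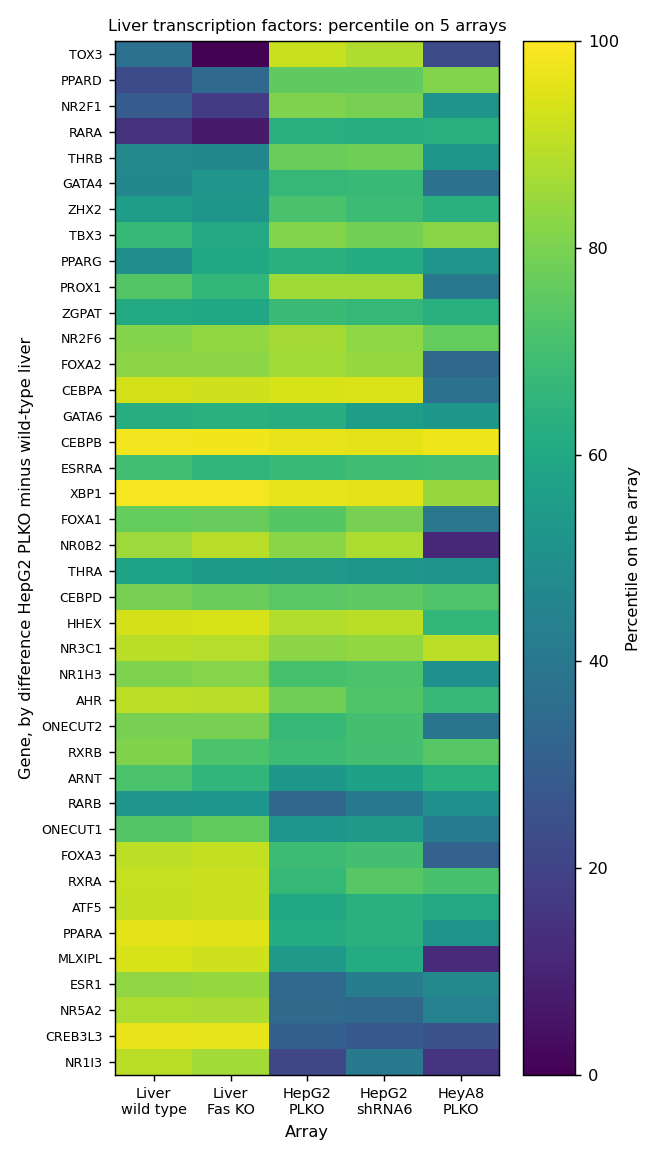
Percentile (colour) of the 40 paired liver transcription factors and nuclear receptors (rows, ordered by HepG2 PLKO minus wild-type liver) on 5 arrays (columns). The lost factors NR1I3, CREB3L3, NR5A2 and ESR1 are at the bottom, dark in both HepG2 columns and bright in both liver columns, and CEBPA and FOXA2 are bright in liver and HepG2 and low in HeyA8, at 37.7 and 33.5.

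Hormone signalling genes divided by receptor. Of 26 paired members 8 were kept, 7 lost and 1 gained. The kept were 42.1% of the 19 liver-high members, beside 65.9% of all liver-high genes. Of all liver-high genes 10.1% were lost, and of all paired genes 3.34% were gained. GHR, the growth hormone receptor, had a signal of 20017.5 in liver (99.1) and 4.4 in HepG2 (6.7), with 99 and 1.2 on the second arrays. Its target IGF1, the endocrine growth factor of the liver, stood at 99 against 23.7, GCGR, the glucagon receptor, at 93.3 against 9.9 and IGFBP2 at 95.7 against 32.6. IGFBP1 (99.3 and 98.2), the cytokine receptor subunit IL6ST (92.7 and 96.4), IGF2R (80.7 and 95) and the HGF receptor MET (90.8 and 93.7) were kept. IGF1R, the receptor for the ligand that was low, was gained at 50 (below the cut before rounding) against 84.0. Of the 15 paired clock genes 8 were high in liver and 3 of these were kept (NFIL3, PER2 and BHLHE40), 37.5% beside 65.9% overall. 1, the circadian output factor DBP, was lost at 97.1 against 47.9. NPAS2 differed most, at 10.2 and 72.7, and CIART by -57.4 points; the hour at which tissue and cells were taken was not used here.

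Of 25 iron and antioxidant genes 14 were kept, 70.0% of the 20 liver-high ones and near the 65.9% of all liver-high genes, with SELENOP, the selenium carrier, at 99.8 and 99.6, SOD1 at 99.6 and 99.3, GPX1 at 99.5 and 98 and GPX4 at 97.5 and 97.3. The hepcidin regulators TMPRSS6 (97.3 against 32.1) and HJV (81.8 against 30.8) were lost and TFR2 lay between (98.8 and 61.5), although HAMP itself was kept. Of 19 paired genes listed as Wnt targets of pericentral hepatocytes 14 were higher in HepG2. The list also holds CTNNB1, beta-catenin itself, and leaves out CYP2E1, lost as given above. Its median difference was 13.8 points, within the quartiles of all paired genes (-10.2 and 15.5). DKK1, a secreted Wnt antagonist, stood at 30.5 in liver and 99.2 in HepG2, SP5 at 41.7 and 92.5, AXIN2, the feedback scaffold, at 47.8 and 90.9 and NKD1 at 44.3 and 75.8. These 4 were gained, beside 3.34% of all paired genes; GLUL, CTNNB1, OAT and ABCC3 were kept and LECT2 was lost. With the Fas knock-out liver array AXIN2 stood at 55.2, outside the low class, and with the shRNA6 array NKD1 stood at 70.7, outside the high class. LGR5, a further target, was in neither class, at 56.3 and 92.4.

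Fetal and oncofetal genes were mostly high in HepG2 (21 of 33) and mostly low in liver (23 of 33). Of 33 paired members (42 listed) 14 were gained, 1 was kept and none was lost, 42.4% gained beside 3.34% over all paired genes. Their median was 40.3 in liver and 90 in HepG2, and 29 of 33 were higher in HepG2. AFP had a signal of 142.3 in liver and 27573.2 in HepG2, percentile 47.2 against 99.8; in Fas knock-out liver it stood at 54.9, above the low class, and on the second HepG2 array at 99.8. On the second arrays IGF2BP1 (73.5 in HepG2) and ROBO1 (63.3 in liver) also left the gained class, and with the median probe set HMGA2 and BEX1 did. GPC3, glypican 3, a membrane proteoglycan used as a marker of liver cancer, had signals of 41.2 and 23914.8 (24.8 against 99.6). The imprinted genes PEG10 (6.7 against 98.9) and DLK1 (27.3 against 98.7) were gained as well; PEG3 and MEST were high in HepG2 (99.1 and 91.1) from 62.5 and 52.1 in liver.

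RNA-binding and chromatin genes of early development formed another part. LIN28B, which blocks let-7 maturation, stood at 27.3 against 95.6, TRIM71, itself a let-7 target, at 10.2 against 96.7, HMGA2 at 24.9 against 98.1 and IGF2BP1 at 30.2 against 76.1. ARID3A (13.9 against 87.1), SOX9 (47.7 against 95.8), KRT19 (18.1 against 96.8), BEX1 (49.5 against 91.0), ROBO1 (44.4 against 96.5) and AKR1B10 (43.4 against 88.7) were the other gained members. LAPTM4B was the kept member, at 88.9 and 99.1. EPCAM (52.4 and 97.7), IGF2BP3 (59.5 and 94.3), SOX4 (62.1 and 90) and MDK (53.0 and 84.1) were high in HepG2 and between percentiles 50 and 75 in liver.

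Some fetal genes were low on both arrays: LIN28A (17.2 and 14.2), SALL4 (17.9 and 39.1), SOX11 (22.6 and 16.2), CDH17 (5.4 and 9.3), NNAT (28.7 and 31.3) and BEX2 (37.8 and 46.4). PLAGL1 (68.0 and 49.4) and GOLM1 (53.4 and 39.4) were lower in HepG2, by less than the gap that 95% of low genes stayed within between the HepG2 arrays. The rest, E2F5, PROM1, SPINK1 and TSPAN8, were at 73.8, 68.7, 52.4 and 57.7 in HepG2. Only 7 of the 33 were high in HeyA8, against 21 in HepG2, HMGA2, IGF2BP3 and SOX4 among them (93.0, 93.1 and 90.7). DLK1 rested on a probe set with the suffix _s_at: with such probe sets left out where a gene has another, its difference was -4.8 points. On the human array alone, SPP1 stood at 99.4 and S100P at 98.9 in HepG2.

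**Figure D4:**
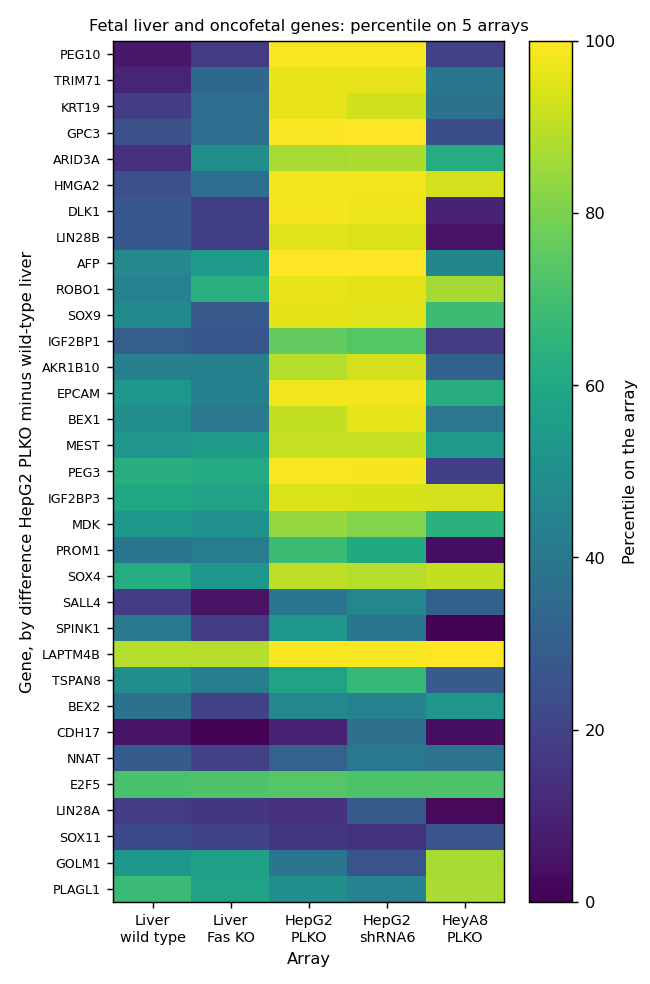
Percentile (colour) of the 33 paired fetal and oncofetal genes (rows, ordered by HepG2 PLKO minus wild-type liver) on 5 arrays (columns). The upper rows are dark in both livers and bright in both HepG2 arrays; of the 33, 21 were high in HepG2 PLKO and 7 in HeyA8 PLKO.

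All 52 paired mitosis genes were higher in HepG2. 31 were gained, against 3.34% of all paired genes, 4 were kept and none was lost, with medians of 39.3 and 88.7. MKI67, the proliferation antigen, had a signal of 41.7 in liver (25) and 1505.9 in HepG2 (79.5), with 44.7 and 80.8 on the second arrays. BUB1 of the spindle checkpoint stood at 2.4 against 87.5, NUF2 of the kinetochore at 3.7 against 81.8, DLGAP5 at 11.4 against 86.0 and the condensin subunit NCAPG at 15.5 against 89.3. CKS2, PTTG1, CKS1B and BUB3 were kept, the last at 86.5 and 96.8 (gained with the median probe set).

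Replication genes showed the same direction: 44 of 46 were higher in HepG2, with medians of 52.9 and 85.7. 12 were gained, against 3.34% of all paired genes, 3 were kept and none was lost. TYMS, thymidylate synthase, had a signal of 29.4 in liver and 17980.0 in HepG2 (20.1 against 99.2). GINS2 of the replicative helicase stood at 18.8 against 89.8, CDC6, which loads it, at 19.1 against 85.7 and UHRF1, which maintains DNA methylation, at 32.8 against 96.6. PCNA (92.6 and 99.2), FEN1 (77.4 and 94.5) and MCM10 (94.6 and 78.4) were kept. In HeyA8 48 of the 52 mitosis and 31 of the 46 replication genes were high, against 45 and 33 in HepG2, so that both cultured lines had most of these genes high.

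TTTGAA was frequent in the promoters of the mitosis list. Of the 43 promoters found for the 52 genes, 31 (72.1%) held TTTGAA on either strand and 30 (69.8%) CCAAT, against 10.7% and 35.6% of the promoters of paired genes and 15.4% and 35.7% of all promoters read. CCAAT was about as frequent in cholesterol and fatty acid synthesis, in 17 of 25 promoters (68.0%), and no other list held TTTGAA in more than 36.8%, the share of the plasma carriers. None of the 43 held GTTAAT, which was also absent from the promoters of several other lists. The replication list held TTTGAA in 2 of 42 promoters (4.76%) and CCAAT in 21 (50%). CCNB2, printed above, is 1 of the 31, and stood at 45.4 in liver and 94.6 in HepG2. ALB and AFP both hold the HNF1 core, and were at 99.8 and 99.8 in HepG2 but at 99.8 and 47.2 in liver.

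Cell cycle regulators and growth genes were less divided. 2 of 25 regulators were gained, beside 3.34% of all paired genes: CDKN3 (43.0 against 92.3) and CDKN1A, the p53 target p21 (48.3 against 82.8). CDKN2A, the inhibitor locus p16, had the largest difference of the list, 49.4 points, at 5.4 and 54.8, but was in no class. MYC (86.2 and 97.0), CCND1 (82.3 and 93.5), CDKN1B (81.0 and 94.1) and CDK2 (77.6 and 83.8) were kept. Of 29 genes of nucleotide and serine synthesis 10 were kept, 5 gained (beside 3.34% of all paired genes) and 1 lost. The kept were 90.9% of the 11 liver-high members, beside 65.9% of all liver-high genes. SLC7A5, a transporter of large neutral amino acids, stood at 12.7 against 95.9, SLC7A11, the cystine importer, at 24.0 against 88.4, ALDH18A1 of proline synthesis at 42.5 against 95.8 and PSAT1 of serine synthesis at 46.1 against 98.9. ODC1, ATIC, PAICS and SHMT2 were kept, at 99.5, 98.2, 98.1 and 96.6 in HepG2. The cytosolic SHMT1 was lost, at 93.8 against 38.9, while its mitochondrial relative SHMT2 was kept.

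Ribosome biogenesis genes were higher in 23 of 25 cases, 7 being kept (87.5% of the 8 liver-high ones, beside 65.9% overall). 1, POLR1B of RNA polymerase I, was gained (49.5 against 89.8), beside 3.34% of all paired genes. NPM1, NCL, NOP10 and FBL stood at 99.7, 99.4, 98.2 and 97.7 in HepG2, and NOLC1 and DDX21 differed by 33.0 and 29.5 points. Ribosomal protein genes were at the top of both arrays (medians 98.2 and 99.8; 14 of 16 kept). RPS10, RPS19, RPS6 and RPL10A led in HepG2, RPS6 from 83.8 in liver. RPS16 had a signal of 1.7 in liver and 34092.3 in HepG2 and RPL14 158.9 and 19862.9, so that both met the definition of gained, RPL14 not on the second arrays (52.5 in Fas knock-out liver). RPS16 has 1 probe set on the mouse array, and its percentile was 0.8 on the second liver array too; whether that probe set measures the gene was not tested.

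**Figure D5:**
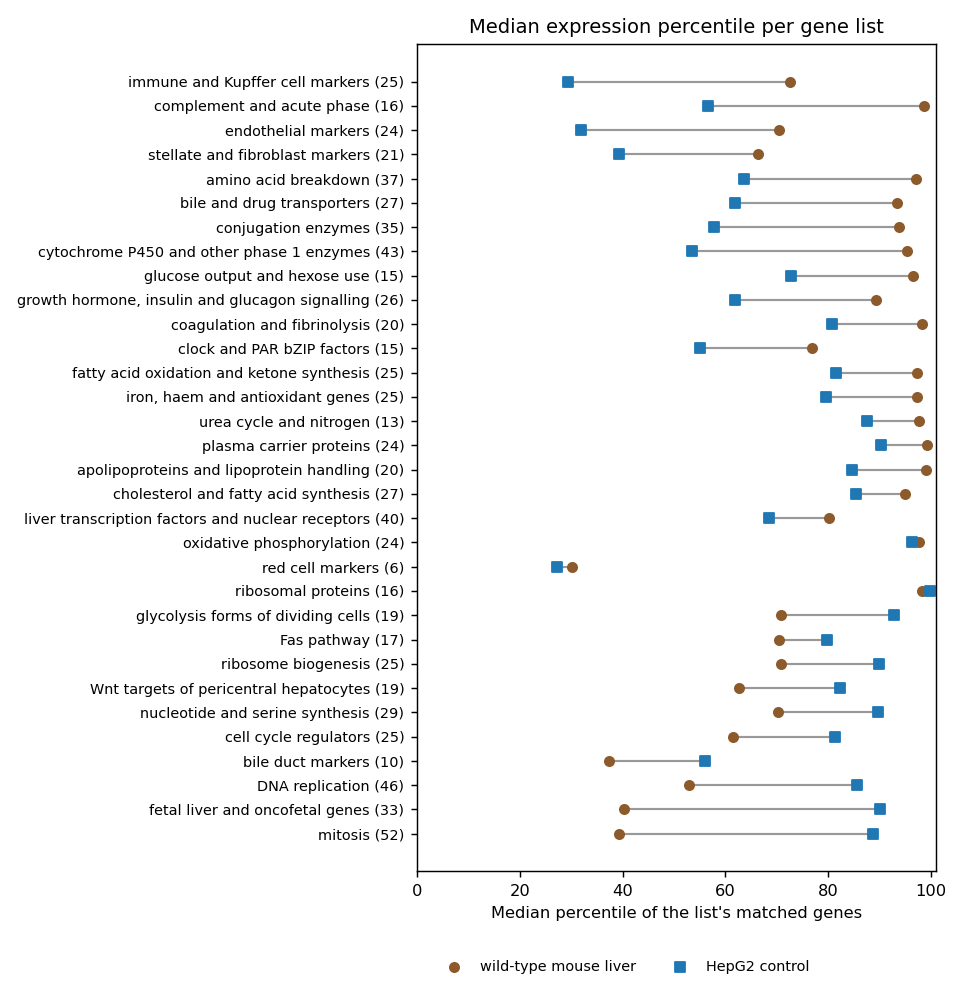
Median percentile of the paired genes of each of the 32 lists in wild-type mouse liver (brown circles) and HepG2 control (blue squares); the number of paired genes is in brackets and lists are ordered by the median difference. Mitosis, fetal and replication genes are at the bottom with medians of 39.3, 40.3 and 52.9 in liver and 88.7, 90 and 85.7 in HepG2.

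Markers of immune, endothelial and stellate cells were mostly lower in HepG2. 24 of the 403 lost genes were immune, endothelial, stellate or red cell markers. Of 25 immune and Kupffer cell markers 11 were high in liver and all 11 were lost; the summed signal of the list on each array's own probes, which differ between mouse and human so that the sums give no ratio, was 40893 in wild-type liver, 35089 in Fas knock-out liver, 1509 in HepG2 with PLKO and 1489 with shRNA6. C1QC (86.3 against 3.6), the Kupffer cell lectin CLEC4F (91.6 against 14.1), TYROBP (85.0 against 11.5) and VSIG4 (93.8 against 24.3) were the largest. Of 24 endothelial markers 6 were lost, with sums of 19777, 18709, 1097 and 1033 in the same order: CLEC4G (94.0 against 4.8), KDR (78.5 against 5.5), STAB2 (86.5 against 18.9) and OIT3 (79.3 against 23.0) led. Of 21 stellate and fibroblast markers 6 were lost, among them COL3A1 (91.8 against 21.0), LRAT, which stores vitamin A (79.9 against 18.8), DCN (97.5 against 38.9) and COL1A2 (78.9 against 21.6); the sums were 36796, 32822, 14065 and 8317. RELN was kept at 91.2 and 96.9. ALAS2, the red cell haem enzyme, was the only one of 6 paired red cell markers that was lost (81.4 against 26.6), with sums of 1734, 2230, 412 and 519. No marker of these lists was at 0 on either array. The part of non-hepatocyte cells in the other lost genes was not tested. Bile duct markers, by contrast, were low in liver in 8 of 10 cases and 3 were high in HepG2: KRT19, SOX9 and EPCAM, with list sums of 984, 1153, 27784 and 23936.

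Fas pathway genes lay on both sides, with 6 lower and 11 higher in HepG2. Of 17 paired genes 6 were kept, 1 gained (beside 3.34% of all paired genes) and none lost. The 6 kept were all of the liver-high members, beside 65.9% of all liver-high genes. The median difference was 6.55 points beside 2.53 over all paired genes. FAS had a signal of 560.2 in liver and 1087.3 in HepG2, the percentiles being 68.2 and 74.7, just under the high class. MCL1 (93.8 and 93.9), CFLAR, which blocks caspase 8 at the receptor (85.8 and 91.2), XIAP (94.6 and 86.0) and CASP8 (87.1 and 80.9) were kept. TNFRSF10B, a receptor for the related ligand TRAIL, was gained at 20.0 against 95.2, and FADD, the adaptor, stood at 57.9 and 77.7 and BAK1 at 48.6 and 59.4.

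Outside the lists lay 295 of the lost and 375 of the gained genes. Among the 15 largest negative differences whose class held on the second arrays and with the median probe set were IYD (an iodotyrosine deiodinase, 94.6 against 0.1), GJB2 (the gap junction protein connexin 26, 95.4 against 2.4), PM20D1 (97.5 against 6.6) and FABP2 (95 against 4.3), beside C9, GYS2, CRP, DPYS, KLKB1, UROC1, GHR, OTC and GSTA3. TIMM23 and EIF4A2, which every cell uses, were also among them, at 2.3 and 7.1 in HepG2 and also low in HeyA8, at 8.3 and 33.2; each has 1 human probe set. The 15 largest positive differences included TUBB3, a neuronal tubulin (3.3 against 97.8), CCL20, a chemokine (10.5 against 98), CPVL, FAM169A, PNMA1, CCNB1IP1, SFXN4, OIP5 and TRNP1, and the mitotic kinase MELK (7.8 against 90.7), beside RPS16, EIF4A3, PEG10, TRIM71 and SLC7A5. EIF4A3, a helicase of every cell, had 1 mouse probe set and stood at 8.4 in liver. Of the lost genes 46.9% had 1 probe set on the human array and of the gained genes 42.6% had 1 on the mouse array, against 38.4% and 43.5% of all paired genes.

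HeyA8 shows which of these levels another human line shared. Of the kept genes 85.0% were high in HeyA8 too, of the lost genes 71.5% were low there, and of the gained genes 61.5% were high. 548 genes were high in mouse liver and low in HeyA8. In HepG2 112 of these (20.4%) were high, 288 (52.6%) were low and 148 lay between.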

How the data were processed

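RNA had been prepared with the Qiagen miRNeasy Mini Kit and hybridised to Affymetrix arrays, per the labels' protocols. The deposited values are 1 signal intensity per probe set and array, computed by the authors using MAS5, as the submitters' processing notes name it, in a version not given in the sources used here; detection calls were not used. Of 54675 human probe sets 41091 name 1 gene, 1801 several and 11721 none; of 45101 mouse probe sets 34945, 932 and 9160. Control probe sets and those naming several genes or none were left out, the highest probe set was taken per gene, signals were ranked within each array (Python 3.11.15, pandas 2.3.3) and genes were matched by symbol, which misses genes named differently in mouse and human and may pair genes that are not equivalent. Comparisons rest on percentiles; signals are printed as each array's own values, and no fold change was computed, since probes differ. With 1 array per group there was no test and no error; the second arrays show the spread and are not replicates. The classification code was run on simulated arrays in which lost and gained genes were planted well past both cuts. That checks the code alone, since genes near a cut, probe differences between species and wrong pairs were not simulated.

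The members and the 32 lists were chosen with earlier results of these data known. Genes named were, per list, up to 4 lost with the largest difference, 4 kept with the highest HepG2 percentile and 4 gained with the largest difference (where a class is empty, up to 3 with the largest difference), the 15 largest differences each way whose class held on the second arrays and with the median probe set, the 10 highest signals per array, ALB, AFP, FAS, HNF4A and MKI67, and all members of the factor and fetal lists. Genes named beyond this were chosen after their values were seen. PROC was taken out of the complement list, since it is in the coagulation list, after its values were seen. Alternatives changed the ranking universe, the probe set, the array, the thresholds, a low-value filter and the symbols.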

Additional observations from a re-analysis of the deposited data

How the results depend on the processing

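No paired analysis was possible because each group is 1 array, and for the same reason no array could be left out in turn. Of 75 comparisons of a count with its value under an alternative, 61 stayed within 1.5 times. Some of the 61 could not change by construction. The low-value filter could alter no class count, the low threshold no kept count and older symbols no count of a list. Membership moved more. With percentiles among all probe sets 231 of the 455 gained and 283 of the 403 lost genes were in the same class. Of the 2639 kept genes 133 became lost or gained with the median probe set and 188 without _x_at and _s_at probe sets. With percentile 90 as the high threshold, all kept genes numbered 748 in place of 2639, lost 182 in place of 403, gained 126 in place of 455, kept liver function genes 58 in place of 105, and gained replication and mitosis genes 20 in place of 43. With percentile 25 as the low threshold, lost genes numbered 148, gained 129, lost liver function genes 25 in place of 67, gained replication and mitosis genes 11 and gained fetal genes 6 in place of 14. A stricter threshold admits fewer genes by construction. Percentiles among all probe sets gave 4798 kept and 9 gained fetal genes. The median signal was lower over all probe sets than over named genes (79.9 against 171 in liver, 58.5 against 138 in HepG2). That ranking thus raises percentiles by construction. Percentiles among matched genes gave 106 lost liver function genes. Matched genes had median percentiles of 57.3 and 60.8 among named genes, so ranking them among themselves lowers percentiles by construction. How much of each change this makes up was not tested. A difference of at least 50 points gave 28 replication and mitosis genes higher in HepG2. That last setting defines no kept genes. Older symbols added 372 pairs, and the low-value filter left 9539 genes. Of 1812 values for 302 named genes, 517 moved by at least 5 points. A change of sign was counted only for lost and gained genes, and 1 was found: DLK1, at -4.8 points without _x_at and _s_at probe sets. Changes of sign among the other named genes were not counted. Levels near an array's background limit the ranks of low genes.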

Other observations

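HepG2 was low for some genes that were high both in mouse liver and in HeyA8, so their human probe sets gave a high signal on another human array. There were 41 such genes for which this also held on the second arrays, and those named here were chosen after their values were seen. GPD2, the mitochondrial glycerol phosphate dehydrogenase, stood at percentile 89.5 in liver, 4.2 in HepG2 and 80.2 in HeyA8. G0S2, an inhibitor of fat breakdown, stood at 92.7, 11.3 and 99.4 in the same order. CD81, a membrane tetraspanin and a receptor of hepatitis C virus, stood at 97.9, 33.3 and 93.6, with 2.7 on the second HepG2 array. The cytoskeletal genes VIM and MSN were at 99.6 and 99.3 in HeyA8 against 45.4 and 25.3 in HepG2.

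In the other direction, 52 genes were gained in HepG2, also on the second arrays, and low in HeyA8. DHRS2, a short-chain dehydrogenase, stood at 30.9 in liver, 99.7 in HepG2 and 24.4 in HeyA8. GPX2, a glutathione peroxidase known from the gut lining, stood at 45.3, 98.5 and 30.2, and CCL20 at 10.5, 98 and 44.0. The 112 genes that were high in liver and HepG2 and low in HeyA8 included APOH, APOA2, APOB and ALB.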
